A study of Homo sapiens with 12 samples.

Results

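MCF10A cells in which JUN overexpression and YAP5SA induction were combined were compared with cells that had neither. MCF10A is a non-tumorigenic human mammary epithelial line, and every cell in the experiment carried a doxycycline-inducible YAP5SA allele, the controls included. JUN Dox cells had been infected with a JUN overexpression vector and were given doxycycline (Dox, 100 ng/ml), so that both factors were raised. Vector EtOH cells had been infected with the empty vector and were given ethanol (EtOH), the solvent of doxycycline, so that neither was raised by design. Each group held 3 RNA-seq libraries, so 6 of the 12 libraries entered the comparison directly. The other 6 came from vector Dox cells (YAP5SA alone) and JUN EtOH cells (JUN alone), 3 libraries each, and were used to split the net change into the share of each factor. Every gene with enough reads was a member, which left 14775 of 23459 genes. The vectors were integrated into a line grown in culture, so a library is a culture of that line and not a separate donor. No label says whether replicates were separate infections, and p-values measure the spread between these libraries only.

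YAP is a transcriptional coactivator that is held outside the nucleus when the Hippo kinases phosphorylate it, and that acts on genes through TEAD transcription factors once that control is lifted. YAP5SA lacks the phosphorylation sites and therefore escapes the kinases. JUN is a subunit of AP-1, a family of dimeric factors of JUN and FOS proteins that control growth factor, cytokine and matrix protease genes. TEAD and AP-1 motifs often lie close to each other in enhancers of epithelial cells. The libraries were made to ask how raised JUN affects genes that YAP controls.

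The manipulated genes were measured first. JUN stood at 55, 35.5 and 52.2 CPM (counts scaled to a common library size) in vector EtOH replicates 1 to 3 and at 1325, 1274 and 1146 CPM in JUN Dox replicates 1 to 3, and this order of replicates is kept for all values that follow. All 3 JUN Dox libraries lay far above the controls, with a net log2 change of 4.71 ± 0.18 (SE; edgeR adjusted p = 9.7e-11). JUN stood at 189.7 ± 4.15 CPM (SD, n = 3) in vector Dox and at 1279 ± 187 CPM in JUN EtOH. YAP1 stood at 191, 171 and 176 CPM in vector EtOH and at 365, 267 and 208 CPM in JUN Dox, a net log2 change of 0.64 ± 0.16 (edgeR adjusted p = 0.0068). The groups did not overlap, but JUN Dox replicate 3 lay closest to the controls. Reads from an introduced coding sequence are counted with those of the native gene for both JUN and YAP1.

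Total counts per library lay between 18594867 and 28993487, the lowest in JUN Dox replicate 1 and the highest in replicate 3 of the same group, and the first principal component of the 6 libraries held 76.3% of their variance and separated the groups. JUN Dox libraries differed among themselves along the GC content of genes. The deviation of a gene from the JUN Dox mean correlated across genes with its GC content at -0.396 in replicate 1, 0.069 in replicate 2 and 0.415 in replicate 3. In JUN EtOH the same correlation was -0.243, -0.075 and 0.268, in the same order of replicates. It was -0.099 to 0.092 in vector EtOH and -0.006 to 0.005 in vector Dox. Without JUN Dox replicate 1, 4418 genes passed the net test in place of 5638, and without replicates 1 and 3 there were 2932. Basal mammary keratins and adhesion genes marked all libraries, with 8 of 9 basal markers at 10 CPM or more throughout. Their summed level was 10800 to 11800 CPM in vector EtOH and 8220 to 10700 CPM in JUN Dox. Of 7 leukocyte markers, PTPRC, CD3E and ITGAM stayed under 1 CPM in every library, while CSF1R, CD68 and CD14 were read, for a summed level of 473 to 552 CPM in vector EtOH and 396 to 450 CPM in JUN Dox. Of 8 fibroblast markers, COL1A2, COL3A1, PDGFRB and THY1 stayed under 1 CPM, and the sum was 110.0 to 124.0 CPM in vector EtOH and 121.0 to 139.0 CPM in JUN Dox, most of it PDGFRA. Hormone-responsive luminal markers summed to at most 27.4 CPM, endothelial markers to at most 2.93 CPM and adipocyte markers to at most 0.19 CPM in any of the 12 libraries. The part of these differences in the results was not tested.

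The doubly perturbed cells differed from the controls in a large share of the transcriptome. Of 14775 genes, 5638 (38.2%) passed the net test at an adjusted p under 0.05 (edgeR quasi-likelihood test with Benjamini-Hochberg adjustment). Of these, 3040 (20.6%) rose and 2598 (17.6%) fell. A change of 2-fold or more was reached by 825 genes that rose (5.58%) and 768 that fell (5.2%). The median net log2 change over all genes was 0.018. The hair keratin gene KRT34, the cytokine genes CXCL3 and IL1B and the protease inhibitor gene SERPINB2 were among the genes with the greatest rise, and SCNN1B and SCNN1G, for epithelial sodium channel subunits, PPL, for a cornified envelope protein, and CDKN1C, for a cyclin-dependent kinase inhibitor, were among those with the greatest fall.

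Ranked by net change among called genes whose groups were apart and whose mean over the 6 libraries reached 5 CPM, KRTAP2-3, a keratin-associated protein of hair, came first. It had raw counts of 1, 0 and 1 in vector EtOH, at the floor of 3 counts, and of 245, 285 and 431 in JUN Dox, where it stood at 12.3, 12.3 and 15.3 CPM. No fold is given against counts this low. KRTAP2-3 stood at 4.87 ± 0.387 CPM in vector Dox and its raw counts in JUN EtOH were 1, 1 and 2, so it was detected above the floor in the Dox groups. It has near-identical paralogs with which reads could have been exchanged.

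CXCL3, a chemokine that attracts neutrophils, stood at 4.41, 2.59 and 2.24 CPM in vector EtOH and at 419, 276 and 248 CPM in JUN Dox. Its net log2 change was 6.65 ± 0.38 (edgeR adjusted p = 5.0e-09), and it carries stretches shared with CXCL1 and CXCL2 between which reads may have been split. KRT34 (chr17:39533921-39538558 on GRCh37), a hair keratin, stood at 0.456, 0.249 and 0.359 CPM in vector EtOH and at 30.9, 40.5 and 37.4 CPM in JUN Dox, a net log2 change of 6.62 ± 0.27 (edgeR adjusted p = 2.2e-10). SERPINB2, an inhibitor of the protease urokinase, stood at 0.837, 0.848 and 0.673 CPM in vector EtOH and at 64.8, 57.2 and 55.1 CPM in JUN Dox, a net log2 change of 6.22 ± 0.19 (edgeR adjusted p = 1.8e-11). In each of these genes the lowest JUN Dox library lay many times above the highest control.

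IGFBP3, which binds insulin-like growth factors, stood at 1.56, 1.15 and 1.21 CPM in vector EtOH and at 131, 71.3 and 70.6 CPM in JUN Dox, a net log2 change of 6.10 ± 0.29 (edgeR adjusted p = 9.2e-10). JUN Dox replicate 1 was the highest of its libraries. ADAMTS1, a secreted metalloprotease, stood at 1.41, 1.2 and 1.48 CPM in vector EtOH and at 62, 42.6 and 48 CPM in JUN Dox, a net log2 change of 5.21 ± 0.22 (edgeR adjusted p = 3.0e-10). IL1B, a principal inflammatory cytokine, stood at 34, 26.2 and 28.8 CPM in vector EtOH and at 1075, 1032 and 1023 CPM in JUN Dox, with little spread between the JUN Dox libraries and a net log2 change of 5.14 ± 0.15 (edgeR adjusted p = 1.8e-11). The other 5 of the 12 genes with the highest net change lie in overlapping pairs or clusters whose reads could not be told apart without strand. ALDH1A2, an enzyme of retinoic acid synthesis, and AQP9, a channel for water and glycerol, overlap each other, and their net log2 changes were 5.22 ± 0.22 and 5.56 ± 0.23. INSYN2B (5.72 ± 0.25) lies inside DOCK2 (5.36 ± 0.19), a Rac activator of leukocytes, and IL24 (5.47 ± 0.32), a cytokine of the IL-10 family, overlaps FCMR. All 5 rose (edgeR adjusted p of 7.1e-09 or lower).

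**Figure D1:**
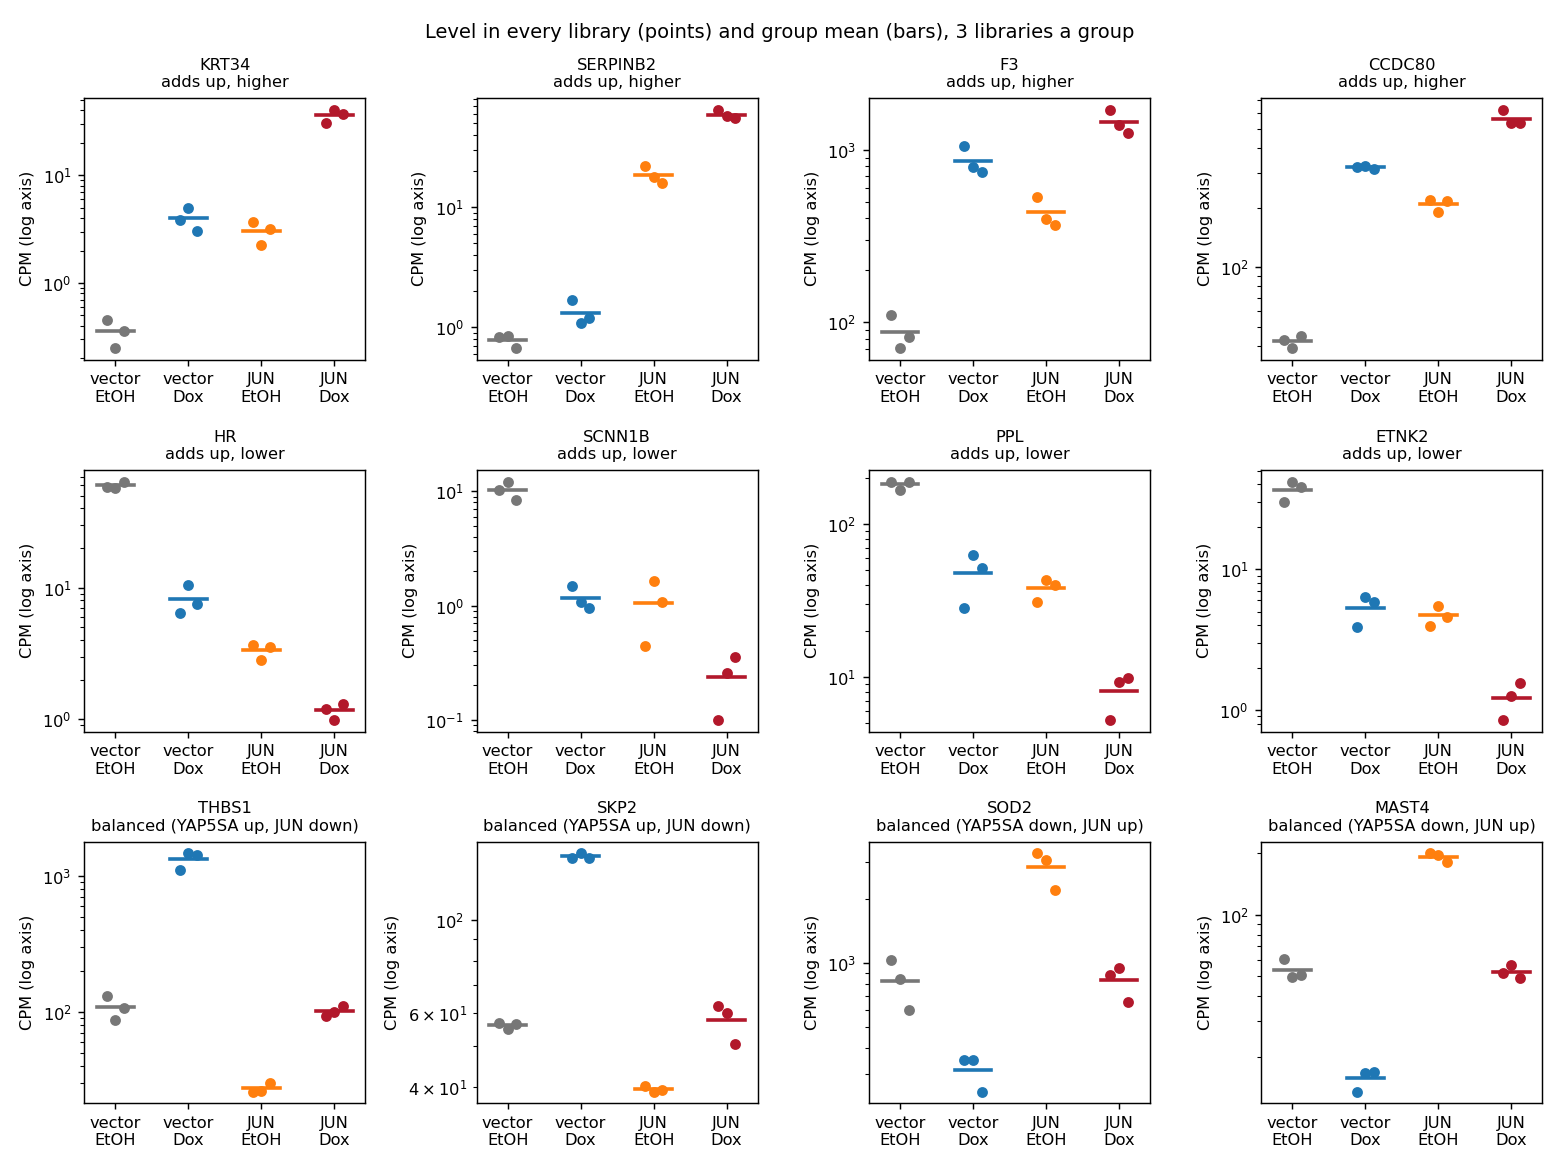
Level of 12 genes in CPM on log axes in all 12 libraries, with a point per library and a bar at the mean of each group of 3. In the upper row the JUN Dox points lie above those of every other group, in the middle row they lie below every other group, and in the lower row they lie among the vector EtOH points while the singly perturbed groups lie on either side.

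At the other end, HR, a nuclear corepressor known from hair follicle cycling, stood at 58.3, 57.4 and 64 CPM in vector EtOH and at 1.2, 0.994 and 1.31 CPM in JUN Dox. Its net log2 change was -5.66 ± 0.19 (edgeR adjusted p = 3.8e-11), a 50.7-fold lower level. SYT8, a member of the synaptotagmin family of membrane traffic proteins, stood at 62.9, 75.9 and 50.3 CPM in vector EtOH and at 1.05, 1.38 and 1.35 CPM in JUN Dox, a net log2 change of -5.62 ± 0.22 (edgeR adjusted p = 1.0e-10). The 3 JUN Dox values of SYT8 lay close together, far under the lowest control.

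The genes for the beta and gamma subunits of the epithelial sodium channel both fell. SCNN1B stood at 10.4, 12.2 and 8.35 CPM in vector EtOH and at 0.1, 0.259 and 0.355 CPM in JUN Dox, where its raw counts were 2, 6 and 10, and its net log2 change was -5.33 ± 0.40 (edgeR adjusted p = 8.7e-08). SCNN1G stood at 64.1, 64.3 and 57.2 CPM in vector EtOH and at 2.16, 3.72 and 1.92 CPM in JUN Dox, a net log2 change of -4.58 ± 0.28 (edgeR adjusted p = 1.0e-08). CDKN1C, the cyclin-dependent kinase inhibitor p57, stood at 10.6, 17.3 and 14.9 CPM in vector EtOH and at 0.301, 0.562 and 0.959 CPM in JUN Dox, a net log2 change of -4.47 ± 0.39 (edgeR adjusted p = 3.7e-07). For SCNN1B and CDKN1C the lowest JUN Dox value was that of replicate 1, and the groups stayed well apart.

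PPL, periplakin of the cornified envelope and of desmosomes, stood at 189, 166 and 188 CPM in vector EtOH and at 5.27, 9.25 and 9.84 CPM in JUN Dox, a net log2 change of -4.47 ± 0.28 (edgeR adjusted p = 1.1e-08). PRR15L stood at 15.9, 20.2 and 18.9 CPM in vector EtOH and at 0.351, 0.259 and 0.569 CPM in JUN Dox, a net log2 change of -5.48 ± 0.33 (edgeR adjusted p = 8.0e-09). ETNK2, an ethanolamine kinase of phospholipid synthesis, stood at 30.2, 41.9 and 38.2 CPM in vector EtOH and at 0.853, 1.25 and 1.56 CPM in JUN Dox, a net log2 change of -4.87 ± 0.23 (edgeR adjusted p = 9.3e-10). The remaining genes of the 12 with the lowest net change were GPRC5C (-3.89 ± 0.26), an orphan receptor, ADGRG1 (-3.88 ± 0.22), an adhesion receptor, CCNA1 (-3.83 ± 0.23), cyclin A1, and ALPP (-3.78 ± 0.34), placental alkaline phosphatase. All 4 fell (edgeR adjusted p of 5.5e-07 or lower), and ALPP shares near-identical sequence with neighbouring alkaline phosphatase genes.

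The net change of each gene was then split. The average YAP5SA effect is the log2 difference between Dox and EtOH averaged over vector and JUN cells, and the average JUN effect is the difference between JUN and vector cells averaged over EtOH and Dox. Their sum is exactly the net change, and both were estimated from the same 12 libraries. No cells without the YAP5SA allele were given Dox, so an effect of Dox itself cannot be told apart from that of YAP5SA. The average YAP5SA effect passed the test in 6020 genes (40.7%), of which 3134 rose and 2886 fell, and the average JUN effect in 8037 genes (54.4%), of which 4035 rose and 4002 fell.

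**Figure D2:**
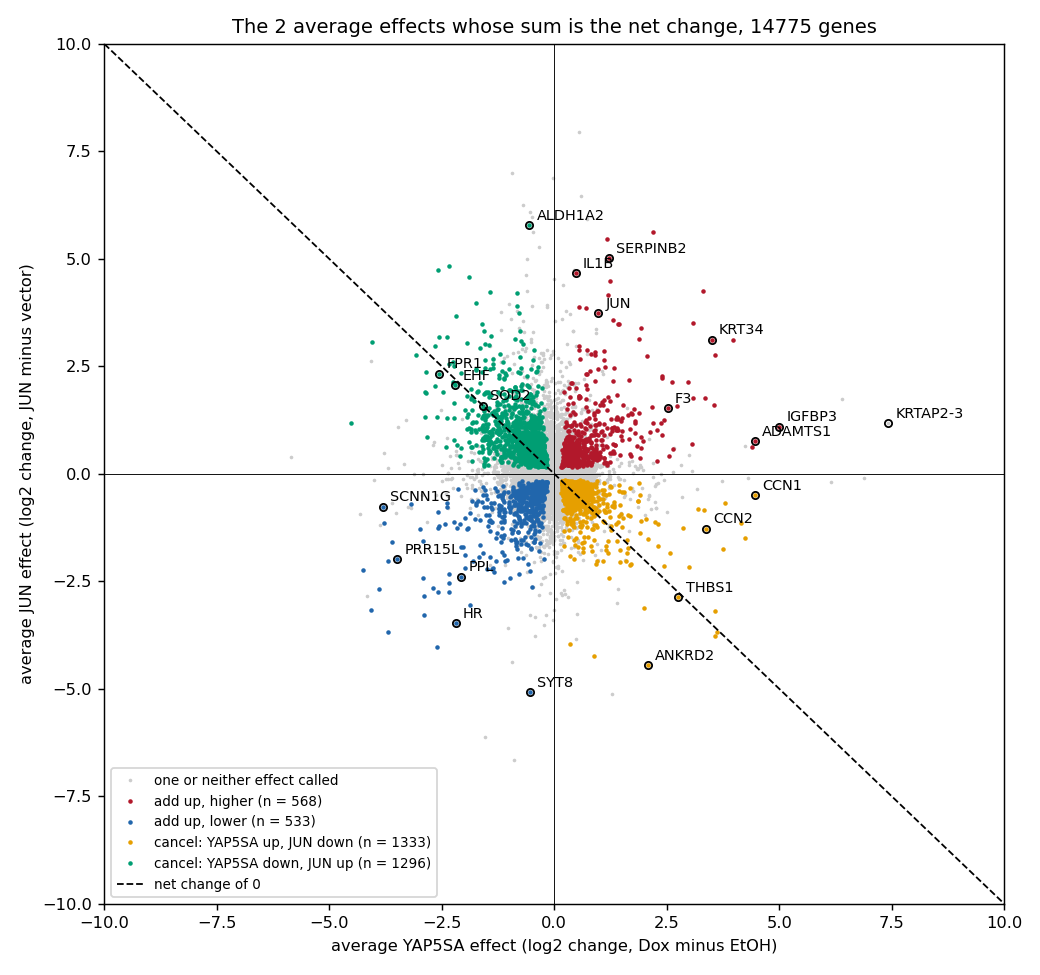
Average YAP5SA effect (horizontal axis, log2) against average JUN effect (vertical axis, log2) for 14775 genes, with coloured points for genes in which both effects were called. Genes on the dashed line have a net change of 0, as THBS1, SOD2 and EHF nearly do, while KRT34 and F3 lie far above the line and HR, PPL and PRR15L far under it.

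Both effects were called with the same sign in 568 genes that were higher by both (3.84%) and 533 that were lower by both (3.61%). All 568 and all 533 passed the net test too, which the sum of 2 called effects of one sign nearly fixes, with median net log2 changes of 1.09 and -1.29, and 320 and 338 of them reached 2-fold. Opposite signs were called in 1333 genes that were higher by YAP5SA and lower by JUN (9.02%) and in 1296 that were lower by YAP5SA and higher by JUN (8.77%). Most of these showed no net call, which was also so for 61.8% of all genes. A sum of 2 opposed effects tends by construction to be small. Among the first kind 1103 of 1333 (82.7%) were not called, 131 rose and 99 fell, and among the other kind 915 of 1296 (70.6%) were not called, 243 rose and 138 fell. A missed threshold does not show that a level is back where it started, so a gene was termed balanced only where both effects were called with opposite signs and the 95% interval of its net change lay within 1.5-fold in either direction. This held for 1725 genes (11.7%), 1051 of the first kind and 674 of the other, and 1630 of the 1725 were not called net. The number depends on the width chosen. Median effects of the first kind, 0.412 (YAP5SA) and -0.401 (JUN), were each smaller than 1.5-fold, so balance there need not be a large cancellation. Within 1.2-fold there were 230 balanced genes.

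**Figure D3:**
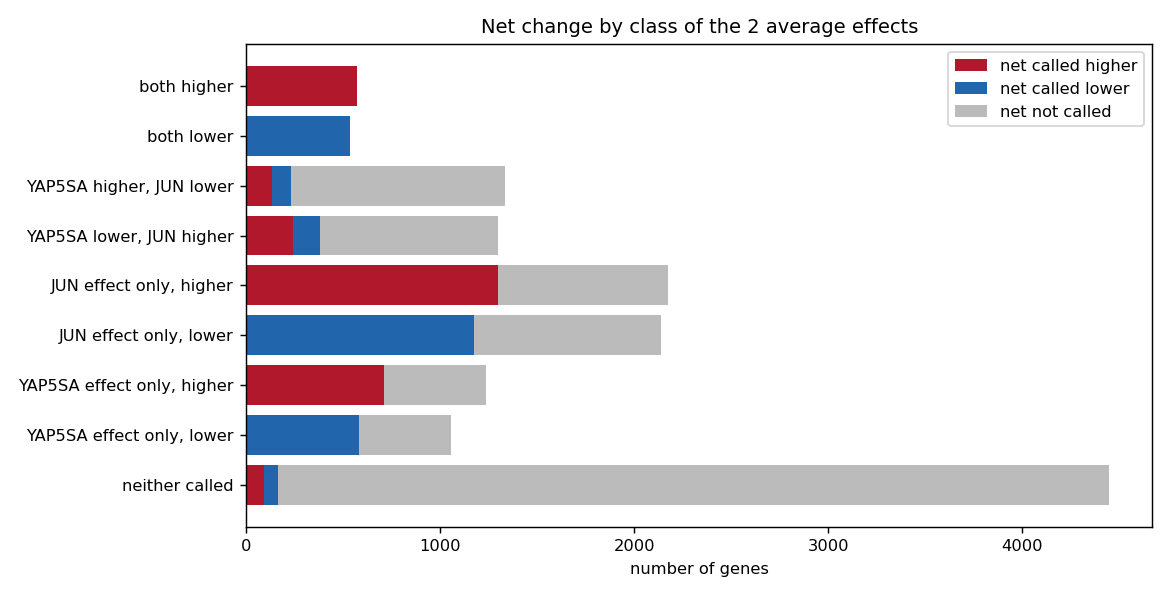
Number of genes (horizontal axis) in each class of average effects, with the net call in colour. The 568 and 533 genes with both effects in one direction were all called in that direction. Of genes with opposed effects, 1103 of 1333 and 915 of 1296 were not called, against 61.8% of all genes.

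Where only the JUN effect was called, 1299 of 2171 genes with a higher level (14.7% of all genes) and 1173 of 2136 with a lower level (14.5%) kept the net call in that direction. Where only the YAP5SA effect was called, this was so for 709 of 1233 (8.35%) and 582 of 1057 genes (7.15%). Neither effect was called in 4448 genes (30.1%), of which 90 rose and 73 fell net. With each factor judged alone, by its effect in the absence of the other against the same vector EtOH libraries, the opposed classes held 543 and 639 genes and 740 were balanced.

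Promoter sequence was read for the members on which this split turns. RefSeq promoters on GRCh38.p14 were at hand for 11491 of the 14775 genes, as windows of 250 bases before to 50 bases after the start of the gene. The AP-1 motif was taken as TGANTCA, which reads alike on both strands apart from its middle base, and the TEAD motif as GGAATG or its reverse complement CATTCC. The motifs can share bases where one runs into the other. The AP-1 letters were present in 4.94% of all these windows and the TEAD letters in 10.8%. Among genes that rose net by at least 2-fold, 600 had a window, of which 10.0% held the AP-1 letters and 13.3% the TEAD letters, against 6.49% and 9.83% of the 539 windows of genes that fell by at least 2-fold. The AP-1 letters stood in 7.74% of windows of genes higher by both factors, 7.9% of genes lower by YAP5SA and higher by JUN, 4.19% of genes higher by YAP5SA and lower by JUN and 4.5% of balanced genes. The TEAD letters stood in 10.9%, 10.4%, 11.3% and 9.72% of these windows. These shares describe the letters near the start site only, and most enhancers lie outside such windows.

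The 250 bases before the start are printed for 5 genes described here, chosen after their values and their motifs had been seen. They show the arrangement of motifs in a gene higher by both factors (F3) and one of the genes with the greatest rise (SERPINB2). They also show it in a classic YAP target that stayed partly induced (CCN2) and a pair of balanced genes (THBS1, NUAK2). Capitals mark the AP-1 letters in F3 and SERPINB2 and the TEAD letters in the other three. F3 is at chr1:94541760-94542009 (minus strand), SERPINB2 at chr18:63887455-63887704 (plus strand), CCN2 at chr6:131951373-131951622 (minus strand), THBS1 at chr15:39580829-39581078 (plus strand) and NUAK2 at chr1:205321746-205321995 (minus strand), all on GRCh38.p14 and written 5′ to 3′ in the direction of the gene.
F3: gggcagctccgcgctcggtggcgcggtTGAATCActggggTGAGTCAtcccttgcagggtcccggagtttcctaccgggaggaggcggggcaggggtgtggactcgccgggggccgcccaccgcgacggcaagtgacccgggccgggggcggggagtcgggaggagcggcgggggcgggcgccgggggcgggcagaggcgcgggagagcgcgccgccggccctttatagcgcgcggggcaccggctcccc
SERPINB2: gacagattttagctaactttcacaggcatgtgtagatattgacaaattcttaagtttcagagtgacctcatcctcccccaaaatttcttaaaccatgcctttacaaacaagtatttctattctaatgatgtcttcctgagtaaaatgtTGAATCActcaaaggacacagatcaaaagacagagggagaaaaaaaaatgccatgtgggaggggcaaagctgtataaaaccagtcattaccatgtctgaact
CCN2: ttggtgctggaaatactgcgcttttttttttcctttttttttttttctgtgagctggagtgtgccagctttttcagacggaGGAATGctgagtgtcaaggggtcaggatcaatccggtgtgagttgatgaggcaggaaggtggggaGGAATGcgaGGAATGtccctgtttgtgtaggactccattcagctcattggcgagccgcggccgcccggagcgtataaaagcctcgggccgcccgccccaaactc
THBS1: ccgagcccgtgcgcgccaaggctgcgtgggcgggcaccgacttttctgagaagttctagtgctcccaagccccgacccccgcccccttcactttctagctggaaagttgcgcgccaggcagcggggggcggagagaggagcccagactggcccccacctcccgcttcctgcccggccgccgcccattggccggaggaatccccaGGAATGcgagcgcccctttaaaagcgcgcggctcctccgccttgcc
NUAK2: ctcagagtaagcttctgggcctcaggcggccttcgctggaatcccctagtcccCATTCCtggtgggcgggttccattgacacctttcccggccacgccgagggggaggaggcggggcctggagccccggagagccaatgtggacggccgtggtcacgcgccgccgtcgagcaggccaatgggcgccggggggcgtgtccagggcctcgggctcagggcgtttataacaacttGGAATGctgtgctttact

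F3 thus has 2 matches to the AP-1 letters and none to the TEAD letters in these bases, SERPINB2 has 1 AP-1 match, CCN2 has 3 TEAD matches of which a pair are close together, THBS1 has 1 TEAD match near the start and NUAK2 has 2 TEAD matches, 1 on each strand. A match is a run of letters and not a measured binding site.

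Genes in which the effects added up were ranked by the smaller of the 2 absolute effects. Adding up means here a shared sign of the average effects, not that the single effects sum to the net change. F3 (-1.55), CCDC80 (-1.48), FYN (-1.32), HR (1.38) and PRR15L (2.43) had a called interaction, a departure from that sum defined further on. F3, tissue factor, the initiator of blood coagulation, stood at 109.9, 70.9 and 81.7 CPM in vector EtOH, at 861 ± 166 CPM in vector Dox, at 433 ± 89.7 CPM in JUN EtOH and at 1704, 1400.1 and 1247 CPM in JUN Dox. Every JUN Dox library was above every library of the other groups. Its average YAP5SA effect was 2.52 ± 0.14 and its average JUN effect 1.53 ± 0.14, for a net log2 change of 4.05 ± 0.22 (edgeR adjusted p = 2.9e-09).

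KRT34 rose by nearly equal parts, with effects of 3.50 ± 0.18 (YAP5SA) and 3.12 ± 0.18 (JUN) on the log2 scale, and stood at 3.97 ± 0.996 CPM in vector Dox and 3.04 ± 0.743 CPM in JUN EtOH. CCDC80, a secreted matrix-associated protein, stood at 42.9, 39.1 and 45.1 CPM in vector EtOH, 320.4 ± 5.36 CPM in vector Dox, 208 ± 16.1 CPM in JUN EtOH and 625, 535 and 534 CPM in JUN Dox, a net log2 change of 3.74 ± 0.12 (edgeR adjusted p = 1.8e-11). The JUN Dox level was the highest of the 4 groups, without overlap. ADAMTS6, a secreted metalloprotease, rose from 1.44, 2.54 and 1.39 CPM in vector EtOH to 56.7, 46.2 and 43.7 CPM in JUN Dox (net log2 change 4.79 ± 0.21, edgeR adjusted p = 3.1e-10). FYN, a Src family kinase, rose from 0.799, 0.948 and 0.449 to 9.38, 11.5 and 10.7 CPM (net log2 change 3.84 ± 0.22, edgeR adjusted p = 4.5e-09). FGF5, a fibroblast growth factor, rose from 1.1, 0.299 and 0.494 to 25.3, 20.4 and 19 CPM (net log2 change 5.01 ± 0.33, edgeR adjusted p = 2.3e-08), with the reservation that it overlaps CFAP299.

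On the lower side, HR had an average YAP5SA effect of -2.19 ± 0.13 and an average JUN effect of -3.47 ± 0.13, and stood at 8.14 ± 2.04 CPM in vector Dox and 3.35 ± 0.456 CPM in JUN EtOH. Each factor alone was thus accompanied by a lower level, and the level with both was the lowest. PPL stood at 47.7 ± 17.5 CPM in vector Dox and 38.1 ± 6.26 CPM in JUN EtOH, with effects of -2.07 ± 0.18 (YAP5SA) and -2.39 ± 0.18 (JUN). ETNK2 stood at 5.34 ± 1.29 CPM and 4.69 ± 0.784 CPM in the same groups, with effects of -2.34 ± 0.16 and -2.53 ± 0.16. The other genes ranked here were PRR15L (-3.50 ± 0.24 and -1.99 ± 0.26), ADGRG1 (-1.99 ± 0.15 and -1.88 ± 0.15) and CCNA1 (-1.81 ± 0.15 and -2.02 ± 0.15). The estimates for the factors were close to each other in PPL, ETNK2, ADGRG1 and CCNA1, whereas the JUN effect was the larger in HR and the YAP5SA effect the larger in PRR15L.

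Balanced genes were ranked the same way. THBS1 (chr15:39873280-39891667 on GRCh37), which encodes the matrix glycoprotein thrombospondin 1, had the greatest opposed effects among those higher by YAP5SA and lower by JUN. It stood at 130.1, 87.3 and 107 CPM in vector EtOH, 1117, 1467 and 1437 CPM in vector Dox, 25.9, 26.2 and 29.7 CPM in JUN EtOH and 92.8, 99.1 and 110.0 CPM in JUN Dox. The vector EtOH and JUN Dox libraries overlapped, while vector Dox lay above both and JUN EtOH under both. Its effects were 2.76 ± 0.11 (YAP5SA) and -2.86 ± 0.11 (JUN), and its net log2 change was -0.10 ± 0.15 with a 95% interval of -0.42 to 0.21 (edgeR adjusted p = 0.6).

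NUAK2, a kinase related to AMPK, stood at 13, 10.8 and 12.3 CPM in vector EtOH, 64.5 ± 7.23 CPM in vector Dox, 9.66 ± 0.741 CPM in JUN EtOH and 13.5, 16.8 and 13 CPM in JUN Dox. Its net log2 change was 0.26 ± 0.13 with a 95% interval of -0.02 to 0.53 (edgeR adjusted p = 0.13), and under a correction for GC content it passed the net test. SKP2, the F-box protein that marks the cell cycle inhibitor CDKN1B for degradation, stood at 56.7, 55 and 56.6 CPM in vector EtOH, 142 ± 1.99 CPM in vector Dox, 39.4 ± 0.659 CPM in JUN EtOH and 62.3, 60.2 and 50.6 CPM in JUN Dox. Its vector EtOH values lay inside the JUN Dox range, with a net interval of -0.15 to 0.23 (net log2 change 0.04 ± 0.09, edgeR adjusted p = 0.77), although SKP2 shares a boundary with NADK2 and reads there are uncertain. The other 3 were CRY1, a repressor of the circadian clock, PLCB4, a phospholipase C, and STC2, a secreted stanniocalcin. Their YAP5SA effects were 1.11, 1.40 and 1.07, their JUN effects -1.11, -1.57 and -1.10, and their net intervals -0.23 to 0.22, -0.53 to 0.19 and -0.33 to 0.27.

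Of the opposite kind, lower by YAP5SA and higher by JUN, SOD2, the superoxide dismutase of mitochondria, was the most abundant of the genes ranked. Its span meets those of ACAT2 and WTAP. It stood at 1039, 844 and 604 CPM in vector EtOH, 349, 349 and 249 CPM in vector Dox, 3287, 3046 and 2201 CPM in JUN EtOH and 883, 951 and 659.6 CPM in JUN Dox. Replicate 3 was the lowest library in each of the 4 groups. Its effects were -1.58 ± 0.15 (YAP5SA) and 1.59 ± 0.15 (JUN), and its net log2 change was 0.00 ± 0.21 with a 95% interval of -0.45 to 0.45.

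FPR1, a receptor for formylated peptides, stood at 16, 18.1 and 18.8 CPM in vector EtOH, 2.07 ± 0.084 CPM in vector Dox, 62 ± 7.15 CPM in JUN EtOH and 10.8, 15.4 and 18.7 CPM in JUN Dox. Its effects were -2.56 ± 0.12 and 2.33 ± 0.12 and its net log2 change -0.23 ± 0.16 (interval -0.56 to 0.11, edgeR adjusted p = 0.27). Without JUN Dox replicate 3 FPR1 passed the net test as lower. EHF, an epithelial ETS factor, stood at 22.4, 26.5 and 20.2 CPM in vector EtOH, 2.19 ± 0.527 CPM in vector Dox, 42.1 ± 2.17 CPM in JUN EtOH and 17.6, 24.3 and 20.4 CPM in JUN Dox, with effects of -2.21 ± 0.11 and 2.06 ± 0.11 and a net interval of -0.46 to 0.16. MAST4, a microtubule-associated kinase, stood at 60.8, 49.3 and 50.7 CPM in vector EtOH, 15.8 ± 1.88 CPM in vector Dox, 193 ± 9.61 CPM in JUN EtOH and 52, 56.6 and 48.9 CPM in JUN Dox, with effects of -1.82 ± 0.08 and 1.79 ± 0.08 and a net interval of -0.27 to 0.20. The vector EtOH and JUN Dox ranges of EHF and MAST4 overlapped. SH3PXD2B, a scaffold of podosomes, had a net interval of -0.39 to 0.27 with effects of -1.82 and 1.76, and FLRT3, an adhesion protein whose gene lies inside MACROD2, had -0.46 to 0.21 with effects of -2.26 and 2.14.

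A set of 8 genes had been picked for display from these same libraries, so their direction is no independent evidence. CCN1 and CCN2 encode matricellular proteins and are classic YAP targets. CCN1 stood at 71, 56.2 and 78.4 CPM in vector EtOH, 1895 ± 88.6 CPM in vector Dox, 61.5 ± 2.72 CPM in JUN EtOH and 1077, 1071 and 1068 CPM in JUN Dox, a net log2 change of 3.97 ± 0.13 (edgeR adjusted p = 3.8e-11). CCN2 stood at 20, 12.8 and 17.6 CPM in vector EtOH, 187 ± 18 CPM in vector Dox, 7.43 ± 1.38 CPM in JUN EtOH and 71.3, 75.4 and 70.6 CPM in JUN Dox, a net log2 change of 2.10 ± 0.15 (edgeR adjusted p = 5.8e-08). For both, JUN Dox lay between vector EtOH and vector Dox, nearer to vector Dox on the log2 scale. Their JUN effects were -0.49 ± 0.09 and -1.28 ± 0.11, against YAP5SA effects of 4.46 ± 0.10 and 3.38 ± 0.11.

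AMOTL2, an angiomotin family member that restrains YAP, rose by 2.11 ± 0.14 on the log2 scale. PLAU, the protease urokinase, stood at 19.6, 16.7 and 15.6 CPM in vector EtOH and at 83.9, 68.5 and 56.2 CPM in JUN Dox, a 4.01-fold higher level (edgeR adjusted p = 1.3e-06), and overlaps C10orf55. ANKRD2, a muscle ankyrin repeat protein, went past balance. It stood at 11.6, 16.8 and 15.9 CPM in vector EtOH, 104 ± 12.3 CPM in vector Dox, 1.13 ± 0.321 CPM in JUN EtOH and 1.66, 3.76 and 2.98 CPM in JUN Dox, a net log2 change of -2.37 ± 0.23 (edgeR adjusted p = 1.0e-06). The JUN Dox libraries thus lay under the vector EtOH libraries in spite of a YAP5SA effect of 2.08 ± 0.17. Its relative ANKRD1, a widely used YAP reporter gene, was scarce, with raw counts of 8, 5 and 6 in vector EtOH, of 5, 5 and 7 in JUN Dox and of 0, 3 and 1 in JUN EtOH, against 10.5 ± 1.03 CPM in vector Dox. Its net interval of -1.13 to 0.72 was too wide to call it balanced.

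Gene lists show where the net change was concentrated and where it was not. Each list is given by the members that rose or fell, to be read against 20.6% and 17.6% of all genes. Its median net log2 change is read against 0.018 for all genes. Where members are counted by class, 9.02% of all genes were higher by YAP5SA and lower by JUN and 8.77% the opposite. Of all genes, 3.84% were higher by both, 3.61% lower by both and 11.7% balanced. A value in brackets after a gene is its net log2 change with its SE, and every such gene was called unless stated otherwise. Lists are counted over their members with enough reads to be tested, and a gene with reads in a single group can pass that filter through the group in which it is high, so neither these counts nor these medians stand for the whole list.

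**Figure D4:**
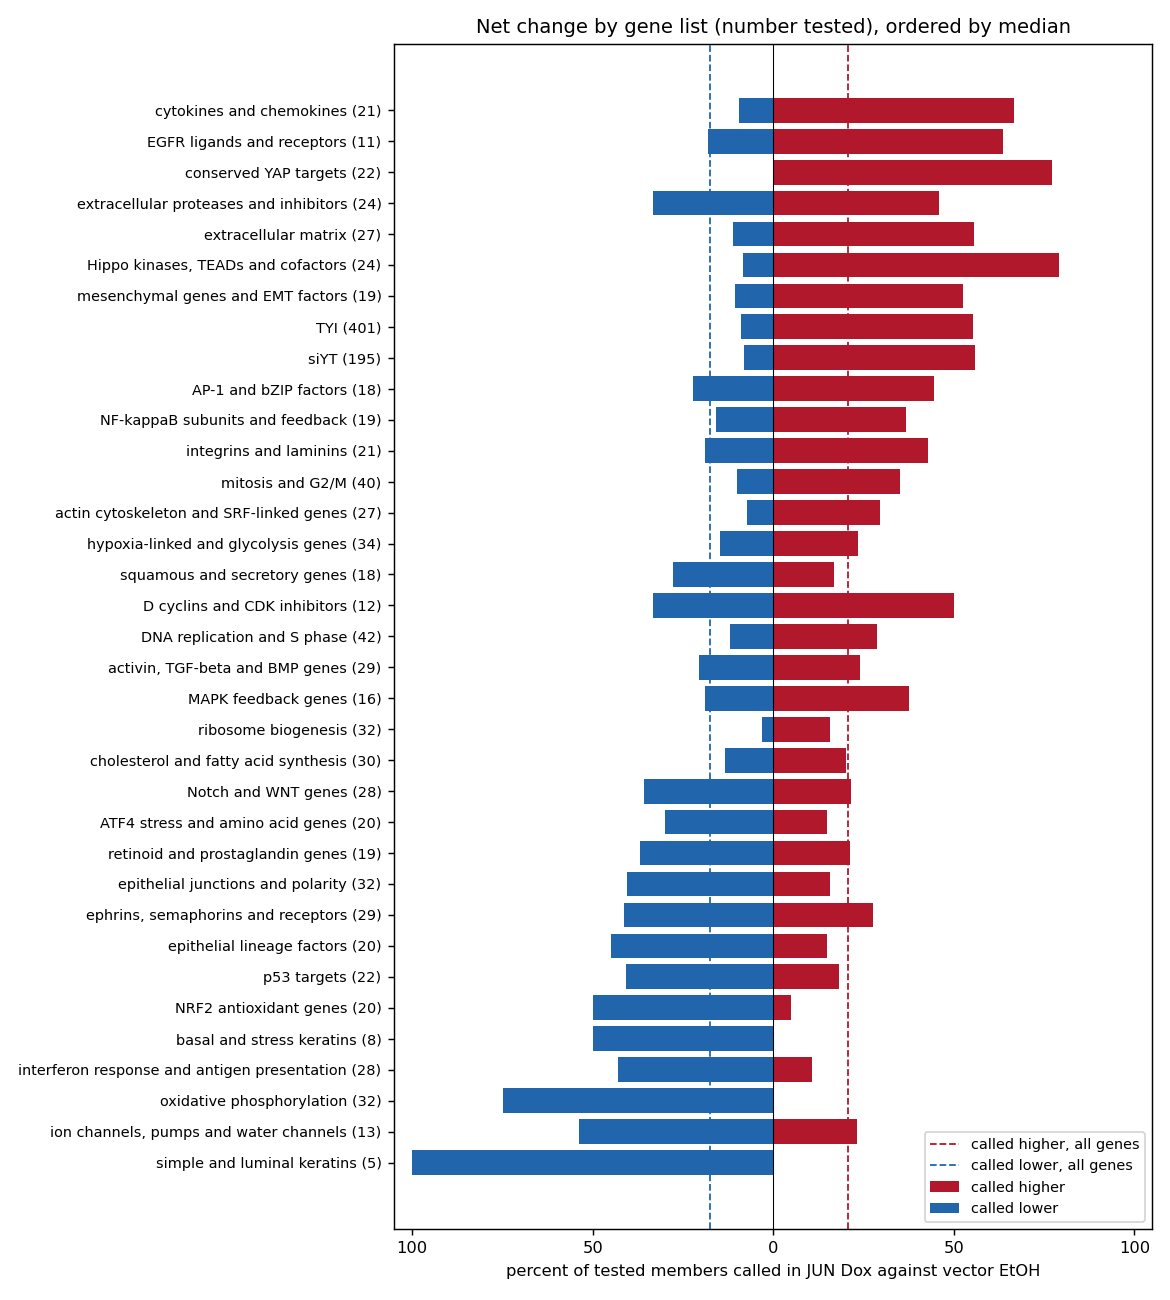
Share of tested members called higher (right) or lower (left) in JUN Dox against vector EtOH, in percent, for each gene list with the number tested in brackets, ordered by median net change. The dashed lines mark 20.6% and 17.6%, the shares over all genes. Cytokines, conserved YAP targets and Hippo pathway genes reach furthest to the right, and oxidative phosphorylation and simple keratins to the left.

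Cytokine and chemokine genes had the highest median of the lists when only tested members were counted. Of 33 members 21 were tested, of which 14 rose, 2 fell and 5 were not called, with a median net log2 change of 3.604, or 3.286 with the 3 members that were at the floor in a group placed at their bound. With no filter on low counts the median over all 33 was 0.748, and 14 rose. That median lay under those of conserved YAP targets (1.286) and of EGFR ligands and receptors (1.259) in the same fit. The median YAP5SA effect was 0.551 and the median JUN effect 2.488. CXCL1, a neutrophil chemokine, stood at 72.2, 42.5 and 42.1 CPM in vector EtOH and at 1938, 1482 and 1217 CPM in JUN Dox, a net log2 change of 4.88 ± 0.36 (edgeR adjusted p = 5.9e-08). The controls ran higher in replicate 1, and so did JUN Dox. CXCL5 and CSF2, named after their values were seen, had 0 counts in all vector EtOH libraries and reached 1.97 and 1.25 CPM in JUN Dox. The members that fell were CXCL16 (-0.83) and IL11 (-2.49, at the floor in JUN Dox), likewise named afterwards, and 1 fell in 8 of the 12 fits that left out a library.

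Among NF-kappaB subunits and feedback genes, which cytokine signals drive, 7 of 19 rose and 3 fell, with a median of 0.277. TNFAIP3, the inhibitor A20, stood at 20.2, 13.7 and 14.9 CPM in vector EtOH and at 264, 212 and 182 CPM in JUN Dox, a net log2 change of 3.75 ± 0.19 (edgeR adjusted p = 2.0e-09). NFKBIZ, a nuclear IkappaB protein that overlaps NXPE3, rose by 3.53 ± 0.24 and IRAK2, a kinase of interleukin-1 receptors, by 1.11 ± 0.14. TNFAIP2 went the other way, from 171, 137 and 139 CPM to 30.2, 24.8 and 25.4 CPM, a net log2 change of -2.47 ± 0.18. IRAK2 was opposed by the factors, with effects of -1.93 ± 0.11 (YAP5SA) and 3.04 ± 0.11 (JUN), and 6 of the 19 members were of that kind, lower by YAP5SA and higher by JUN, against 8.77% of all genes.

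Ribosome biogenesis genes showed the opposite picture, with opposed effects and little net change. Of 32 tested, 27 were higher by YAP5SA and lower by JUN, against 9.02% of all genes. Of the 32, 23 were balanced, against 11.7% of all genes. Balance requires opposed effects, and 1051 of all 1333 genes of this kind were balanced. The median YAP5SA effect of the list was 0.482 and its median JUN effect -0.411, each smaller than 1.5-fold. A single effect of that size could lie within the balance margin. The median net change of the list was 0.000. Net, 5 rose, 1 fell and 26 were not called. The balanced count was 17 without JUN Dox replicates 1 and 3. The few net calls moved with single libraries. Without vector EtOH replicate 2, 2 rose and none fell, without vector Dox replicate 1, 8 rose and 3 fell, and without JUN Dox replicate 3, 3 rose and 5 fell. The number that rose was also 3 without vector EtOH replicate 1 or JUN Dox replicate 2, and the number that fell was 2 without vector Dox replicate 2 and 0 without JUN Dox replicate 1. FBL, the methyltransferase of nucleoli, stood at 183, 217 and 204 CPM in vector EtOH, 239.6 ± 38.9 CPM in vector Dox, 122 ± 17.4 CPM in JUN EtOH and 122, 165 and 179 CPM in JUN Dox, a net log2 change of -0.38 ± 0.15 (edgeR adjusted p = 0.066). The JUN Dox libraries lay under the controls, with replicate 1 the lowest. BYSL, of small subunit assembly, stood at 57.8, 55.8 and 60.1 CPM in vector EtOH, 106 ± 8.19 CPM in vector Dox, 43.1 ± 4.59 CPM in JUN EtOH and 61.8, 77.8 and 85.5 CPM in JUN Dox, a net log2 change of 0.37 ± 0.12 (edgeR adjusted p = 0.023). UTP20, of the same process, rose by 0.53 ± 0.15 and NHP2, of H/ACA particles and overlapping RMND5B, fell (-0.52 ± 0.17).

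Genes of DNA replication and S phase were opposed in 24 of 42 cases, all 24 higher by YAP5SA and lower by JUN, against 9.02% of all genes. Of the 42, 20 were balanced, against 11.7%. The median YAP5SA effect was 0.351 and the median JUN effect -0.312, each smaller than 1.5-fold. The median net change was 0.064, with 12 that rose, 5 that fell and 25 not called. Net calls in this list rested on few libraries, since 5 rose and 3 fell without vector EtOH replicate 3, 6 rose and 2 fell without vector EtOH replicate 2, 5 rose and 2 fell without JUN Dox replicate 1, and 3 rose and 2 fell without JUN Dox replicates 1 and 3. The number that fell was also 3 without vector Dox replicate 3, JUN EtOH replicate 1 or 2, or JUN Dox replicate 2. RRM2, the small subunit of ribonucleotide reductase, rose from 255, 242 and 231 CPM in vector EtOH to 468, 447 and 432 CPM in JUN Dox (net log2 change 0.89 ± 0.10, edgeR adjusted p = 7.5e-06). E2F7, an atypical E2F repressor, rose by 1.09 ± 0.15, whereas E2F2, an E2F activator, fell (-1.12 ± 0.13).

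Genes of mitosis and G2/M were opposed in 12 of 40 cases, all higher by YAP5SA and lower by JUN, against 9.02% of all genes. Of the 40, 9 were balanced, against 11.7%. Their median YAP5SA effect was 0.349, their median JUN effect -0.053 and their median net change 0.189, and 14 rose, 4 fell and 22 were not called. Without JUN Dox replicate 1, 9 rose and 5 fell, without vector EtOH replicate 2, 10 rose and 2 fell, and without JUN Dox replicates 1 and 3, 4 rose and 2 fell. ANLN, the contractile ring scaffold anillin, rose from 299.8, 251 and 279 CPM to 577, 489 and 446 CPM (net log2 change 0.87 ± 0.12, edgeR adjusted p = 4.9e-05), KIF23, a kinesin of the midzone, by 0.90 ± 0.10 and CENPE, a kinetochore kinesin, by 0.75 ± 0.16. CDC25B, a phosphatase that starts mitosis, fell from 304, 303 and 289.8 CPM to 136, 151 and 172 CPM (net log2 change -0.97 ± 0.11, edgeR adjusted p = 4.4e-06). Of 12 D cyclins and CDK inhibitors, 6 rose and 4 fell. The number that rose was 3 without vector EtOH replicate 2 or 3 or JUN Dox replicate 2, and 3 rose and 2 fell without JUN Dox replicates 1 and 3. CCND2 rose by 1.73 ± 0.16 and CDK6 by 1.52 ± 0.20, while CCND3 (-0.61 ± 0.12) and CDKN1C fell.

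**Figure D5:**
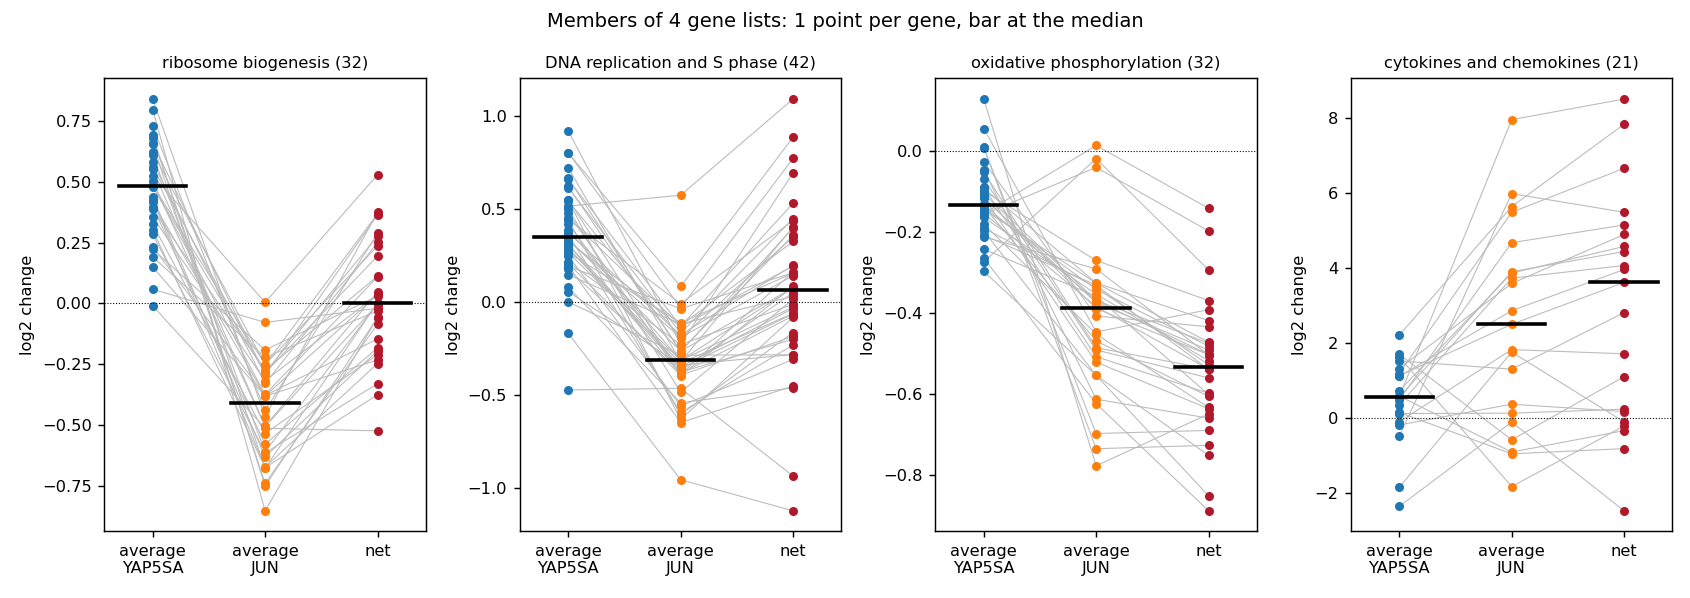
Average YAP5SA effect, average JUN effect and net change (log2, vertical axes with different ranges) of the members of 4 gene lists, a point per gene joined by a thin line and a bar at the median. Ribosome biogenesis genes go from a median of 0.482 through -0.411 to a net of 0.000 and S phase genes end at 0.064, whereas oxidative phosphorylation genes end at -0.533 and the 21 cytokine genes with enough reads at 3.604, where all 33 have a median of 0.748.

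Nuclear genes of oxidative phosphorylation fell together and not by much. Of 32 tested, 24 fell and 8 were not called, with a median net log2 change of -0.533 and a range of -0.89 to -0.14. The median effects were -0.135 (YAP5SA) and -0.386 (JUN). UQCRC1, of complex III, stood at 244, 282 and 276 CPM in vector EtOH and at 112, 150.3 and 171 CPM in JUN Dox, a net log2 change of -0.89 ± 0.14 (edgeR adjusted p = 1.8e-04). COX5B, of complex IV, stood at 86.2, 126 and 98.3 CPM and 46.6, 61.5 and 64 CPM, a net log2 change of -0.85 ± 0.19 (edgeR adjusted p = 0.0029). NDUFB5, of complex I, and ATP5MC1, of the ATP synthase, fell by comparable amounts (-0.75 ± 0.14 and -0.73 ± 0.17). JUN Dox replicate 1 was the lowest for UQCRC1, COX5B and ATP5MC1. Across all genes the net change correlated with GC content at -0.218, and with a correction for GC content 29 of the 32 fell, with a median of -0.665. Without JUN Dox replicates 1 and 3, 7 fell and the median was -0.482.

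Genes of the Hippo pathway itself rose in the doubly perturbed cells. Of 24 kinases, adaptors, TEADs and cofactors, 19 rose, 2 fell and 3 were not called, with a median net log2 change of 0.597 and median effects of 0.262 (YAP5SA) and 0.265 (JUN). FRMD6, an upstream regulator of the pathway, rose from 44.3, 36.6 and 40.7 CPM in vector EtOH to 255, 209.9 and 208 CPM in JUN Dox (net log2 change 2.47 ± 0.12, edgeR adjusted p = 8.8e-10). VGLL3, a cofactor that competes for TEADs, rose by 2.27 ± 0.18 and LATS2, one of the kinases that phosphorylate YAP, by 1.41 ± 0.14. Without vector EtOH replicate 2, 13 of the 24 rose and 1 fell, without JUN Dox replicate 1, 14 rose and 1 fell, and without JUN Dox replicates 1 and 3, 11 rose and 1 fell. Of 22 conserved YAP targets, 17 rose and 5 were not called, with a median of 1.288 and median effects of 1.411 (YAP5SA) and 0.114 (JUN). AXL, a receptor tyrosine kinase, rose from 99.6, 93.4 and 103 CPM to 353, 424 and 506 CPM (net log2 change 2.12 ± 0.17, edgeR adjusted p = 1.3e-07), and GADD45A, a stress response gene, by 1.80 ± 0.25. Of the 22, 7 were higher by YAP5SA and lower by JUN and 1 of the opposite kind, and NUAK2 alone was balanced, which it was not in 4 of the 12 fits that left out a library.

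The study's own list of YAP-induced genes, which it drew from a separate experiment, held 407 different Entrez gene IDs, of which 401 were tested. Of these, 222 rose (55.4%), 36 fell (8.98%) and 143 were not called, and the median net log2 change was 0.465, with median effects of 0.574 (YAP5SA) and -0.112 (JUN). The list held 127 genes that were higher by YAP5SA and lower by JUN, 79 that were higher by both and 70 that were balanced, or 46 balanced without JUN Dox replicates 1 and 3, against 9.02%, 3.84% and 11.7% of all genes. A further list of the study, of YAP and TAZ targets, had 195 tested members, of which 109 rose (55.9%), 16 fell (8.21%) and 70 were not called, with a median of 0.429. In it 43 were higher by YAP5SA and lower by JUN, 38 were higher by both and 22 were balanced, so that the balanced share was near that of all genes. The balanced count was 35 with a correction for GC content, and without JUN Dox replicates 1 and 3 it was 14 and the number that fell was 8.

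AP-1 and related bZIP genes moved in both directions, with 8 of 18 higher, 4 lower and a median of 0.332, and with 5 higher and 3 lower without JUN Dox replicates 1 and 3. FOSL1, the FOS family member FRA1, rose from 82.7, 69.4 and 77.2 CPM in vector EtOH to 379, 403 and 483 CPM in JUN Dox (net log2 change 2.46 ± 0.13, edgeR adjusted p = 3.0e-09). FOS fell from 22.5, 26 and 18.4 CPM to 4.01, 5.66 and 3.41 CPM (net log2 change -2.36 ± 0.20, edgeR adjusted p = 2.8e-07) and JUND from 120.0, 119.6 and 118 CPM to 26.2, 46 and 46.6 CPM (net log2 change -1.59 ± 0.18, edgeR adjusted p = 5.8e-06). FOSL1 was higher by both factors and JUND lower by both, while FOS had a called effect of YAP5SA alone (-2.37 ± 0.14).

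Of 11 tested ligands and receptors of the EGF receptor family, 7 rose, all 7 by at least 2-fold, and 2 fell, with a median of 1.411. Without JUN Dox replicates 1 and 3, 6 rose and 1 fell. AREG, amphiregulin, stood at 216, 208 and 216 CPM in vector EtOH and at 1906, 1596 and 1418 CPM in JUN Dox, a net log2 change of 2.94 ± 0.17 (edgeR adjusted p = 6.0e-09). EPGN, epigen, rose from 80.4, 68.9 and 78.2 CPM to 583, 479.9 and 443 CPM (2.73 ± 0.15), NRG1, neuregulin 1, which binds other receptors of the family, by 2.47 ± 0.18 and HBEGF by 1.58 ± 0.17. Of 16 MAPK feedback genes 6 rose and 3 fell. The MAP kinase phosphatase gene DUSP5 rose from 17.7, 16.8 and 16.7 CPM to 98.2, 107 and 92.6 CPM (net log2 change 2.54 ± 0.13, edgeR adjusted p = 1.6e-09), while DUSP6 fell from 84, 72.8 and 70.3 CPM to 30.7, 35.1 and 28.6 CPM (net log2 change -1.27 ± 0.12, edgeR adjusted p = 6.7e-07). DUSP14 (1.19 ± 0.09) and SPRY4 (0.85 ± 0.14) rose.

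Extracellular matrix genes rose in 15 of 27 tested cases and fell in 3, with a median of 0.63. With no filter on low counts 15 of all 35 rose, 3 fell and the median was 0.376. POSTN, periostin, stood at 0.608, 0.549 and 0.942 CPM in vector EtOH and at 18.6, 11.4 and 18.6 CPM in JUN Dox, a net log2 change of 4.52 ± 0.30 (edgeR adjusted p = 2.6e-08). FN1, fibronectin, rose from 57.1, 35.6 and 42.9 CPM to 278, 256 and 198 CPM (2.43 ± 0.22) and FBN1, fibrillin 1, by 2.53 ± 0.17. Both groups of libraries stayed apart for all 3 genes. Of 24 extracellular proteases and inhibitors, 11 rose, all by at least 2-fold, and 8 fell. CST6, the inhibitor cystatin E/M, fell from 10.3, 15.6 and 13.2 CPM to 0.953, 1.12 and 1.67 CPM (net log2 change -3.34 ± 0.35, edgeR adjusted p = 2.5e-06). Of 21 integrins and laminins, 9 rose and 4 fell, or 6 and 2 without JUN Dox replicates 1 and 3. LAMB3, a chain of laminin 332, rose by 0.99 ± 0.12 and LAMA1 by 1.53 ± 0.18, while ITGB4, the integrin subunit that binds laminin 332 in hemidesmosomes, fell from 812, 740.0 and 722 CPM to 178, 249 and 268 CPM (net log2 change -1.71 ± 0.18, edgeR adjusted p = 2.5e-06).

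Mesenchymal genes and factors of epithelial-mesenchymal transition rose in 10 of 19 cases and fell in 2, or in 1 without JUN Dox replicates 1 and 3, with a median of 0.58. SNAI2, a repressor of epithelial genes, stood at 17.6, 12.2 and 13.8 CPM in vector EtOH and at 82.6, 67.4 and 73.4 CPM in JUN Dox, a net log2 change of 2.35 ± 0.15 (edgeR adjusted p = 1.2e-08). ZEB2, of the same function, rose by 3.57 ± 0.22, with a JUN effect of 3.56 ± 0.15 and a YAP5SA effect of 0.01 ± 0.14. WNT5A, a ligand of non-canonical WNT signalling, rose from 5.02, 3.74 and 5.92 CPM to 69.8, 73.2 and 60 CPM (3.78 ± 0.16). Of 27 genes of the actin cytoskeleton and of SRF, 8 rose and 2 fell. Without vector EtOH replicate 3, 6 rose and 1 fell, without JUN Dox replicate 2, 10 rose and 1 fell, without JUN Dox replicate 3, 6 rose and 4 fell, and without JUN Dox replicates 1 and 3, 4 rose and 2 fell. CNN3, calponin 3, and LIMA1 rose by 1.90 ± 0.14 and 1.34 ± 0.09, PALLD, palladin, by 0.83 ± 0.10 with an overlap with CBR4, and CNN2 fell (-0.89 ± 0.15).

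Lists of keratins, junctions and epithelial lineage factors held more genes that fell than genes that rose. All 5 simple and luminal keratins tested fell, with a median of -0.987. KRT80 stood at 68.8, 58.3 and 64.2 CPM in vector EtOH and at 4.16, 4.84 and 6.64 CPM in JUN Dox, a net log2 change of -3.60 ± 0.16 (edgeR adjusted p = 5.1e-10). KRT7 fell from 3114, 3414 and 3500.1 CPM to 1169, 1480.0 and 1873 CPM (-1.15 ± 0.16) and overlaps KRT86, which had more reads. KRT8 (-0.99 ± 0.17) and KRT18 (-0.98 ± 0.18), partners in one filament, are neighbours that overlap in part. Of 8 basal and stress keratins, 4 fell and 4 were not called, while 1 rose and 4 fell without JUN Dox replicate 1, and 1 rose and 2 fell without JUN Dox replicates 1 and 3. KRT15 fell from 32.9, 56.7 and 35 CPM to 3.16, 3.03 and 3.98 CPM (-3.60 ± 0.26), KRT16 from 63.2, 61.7 and 46.2 CPM to 10.3, 26.3 and 24.6 CPM (-1.47 ± 0.26) and KRT5, the keratin of basal cells, by less (-0.69 ± 0.17). KRT17 fell too (-0.69 ± 0.22), with 622, 1179.6 and 1288 CPM in JUN Dox, so that replicate 1 lay far under the other libraries of its group.

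Of 32 genes of epithelial junctions and polarity, 13 fell, 5 rose and 14 were not called, with a median of -0.216. CLDN7, a claudin of tight junctions, stood at 148, 149.9 and 147 CPM in vector EtOH and at 26.5, 40.8 and 33.2 CPM in JUN Dox, a net log2 change of -2.14 ± 0.13 (edgeR adjusted p = 1.1e-08). EPCAM, an adhesion protein of simple epithelia, fell from 137, 163 and 138 CPM to 40.6, 44.8 and 42.1 CPM (-1.78 ± 0.12) and DSG3, a desmosomal cadherin, from 103, 89.9 and 91 CPM to 31.3, 29.4 and 24.5 CPM (-1.74 ± 0.12). These fell through different factors, since EPCAM had effects of 0.07 ± 0.08 (YAP5SA) and -1.85 ± 0.08 (JUN), and DSG3 of -1.83 ± 0.09 and 0.09 ± 0.09. TJP3, a tight junction scaffold, fell (-2.37 ± 0.20) and overlaps APBA3. Of 20 epithelial lineage factors 9 fell and 3 rose. OVOL2 and ESRP1, which maintain epithelial gene expression and splicing, fell (-1.44 ± 0.16 and -1.13 ± 0.09), and KLF4 rose (1.01 ± 0.17). OVOL2 overlaps SNX5, which had more reads. Of 18 squamous and secretory genes 3 rose and 5 fell, and the order of these counts turned with single libraries. Without JUN Dox replicate 1, 5 rose and 3 fell, without vector EtOH replicate 1, 4 rose and 3 fell, without vector EtOH replicate 2, 2 rose and 2 fell, without JUN Dox replicate 2, 2 rose and 3 fell, and without JUN Dox replicates 1 and 3, 3 rose and 3 fell. LCN2, lipocalin 2, rose by 3.72 ± 0.25 and TGM1, a transglutaminase of the cornified envelope, fell (-0.72 ± 0.12), while S100A8 stood at 53.9, 57 and 21.1 CPM in vector EtOH and 62.1, 136 and 86.6 CPM in JUN Dox and was not called (net log2 change 1.11 ± 0.41, edgeR adjusted p = 0.052). Of 13 ion channels, pumps and water channels, 7 fell and 3 rose, with KCNN4, a calcium-activated potassium channel, at -2.49 ± 0.14.

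Interferon response and antigen presentation genes fell in 12 of 28 cases and rose in 3, with a median of -0.442. None rose without vector EtOH replicate 3, without JUN Dox replicate 1 or without JUN Dox replicates 1 and 3, and 1 rose without vector EtOH replicate 1 or 2, JUN EtOH replicate 1 or JUN Dox replicate 2, while at least 8 fell in each of these fits. IFI44L, an interferon-induced gene, stood at 10.2, 11.7 and 10.5 CPM in vector EtOH and at 1.05, 0.908 and 1.14 CPM in JUN Dox, a net log2 change of -3.37 ± 0.19 (edgeR adjusted p = 4.5e-09). IRF1, an interferon-responsive factor that overlaps CARINH, fell from 24.2, 20.3 and 24.2 CPM to 11, 11.2 and 12.2 CPM, and PSMB8 (-0.78 ± 0.18, overlapping PSMB9) and ISG15 (-0.80 ± 0.26) fell too. Antioxidant genes of the NRF2 programme fell in 10 of 20 cases and rose in 1, with a median of -0.386. ABCC2, an export pump, stood at 61.2, 58.2 and 55 CPM in vector EtOH and at 13.9, 13.7 and 13.6 CPM in JUN Dox, a net log2 change of -2.08 ± 0.13 (edgeR adjusted p = 1.4e-08). ABCC3 fell (-1.51 ± 0.14), and so did the aldo-keto reductases AKR1C2 (-1.93 ± 0.14) and AKR1C3 (-1.02 ± 0.11), which are related in sequence. Of the 20, 7 were lower by both factors, against 3.61% of all genes.

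Targets of p53 fell in 9 of 22 cases and rose in 4, or in 6 and 2 without JUN Dox replicates 1 and 3, with a median of -0.289. GDF15, a stress-induced cytokine, stood at 25.9, 32.7 and 27.2 CPM in vector EtOH and at 2.26, 3.98 and 3.52 CPM in JUN Dox, a net log2 change of -3.12 ± 0.20 (edgeR adjusted p = 1.3e-08). BBC3, the proapoptotic protein PUMA, fell (-2.53 ± 0.20) with effects of -1.12 ± 0.14 (YAP5SA) and -1.41 ± 0.14 (JUN), and BTG2 fell (-1.48 ± 0.13). Stress and amino acid genes of ATF4 fell in 6 of 20 cases and rose in 3, or in 5 without vector Dox replicate 1 and in 1 without JUN Dox replicates 1 and 3. DDIT4, an inhibitor of mTORC1, fell from 705, 774 and 693 CPM to 149, 166 and 110.2 CPM (-2.35 ± 0.16), with a YAP5SA effect of -2.27 ± 0.12 and a JUN effect of -0.09 ± 0.11. CEBPB (-1.37 ± 0.10), ASNS, asparagine synthetase (-0.79 ± 0.12), and PSAT1, of serine synthesis (-0.64 ± 0.10), fell as well. Hypoxia-linked and glycolysis genes were near the background, with 8 of 34 higher and 5 lower, or 2 lower without vector EtOH replicate 1 or 2 or JUN Dox replicate 1 or 2, 3 without vector EtOH replicate 3, 9 without JUN Dox replicate 3 and 2 without JUN Dox replicates 1 and 3. ADM, adrenomedullin, was the exception in size, at 6.24, 6.79 and 7.63 CPM in vector EtOH and 232, 194 and 239.7 CPM in JUN Dox, a net log2 change of 5.01 ± 0.19 (edgeR adjusted p = 9.3e-11). BNIP3 (0.90 ± 0.11), SLC2A1, the glucose transporter GLUT1 (0.93 ± 0.12), and ENO2 (1.70 ± 0.17, overlapping LRRC23) rose.

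Several lists held members in both directions. Of 30 genes of cholesterol and fatty acid synthesis, 6 rose and 4 fell, or 6 and 1 without JUN Dox replicates 1 and 3, among them INSIG1 (1.28 ± 0.18) and STARD4 (1.36 ± 0.21) on the higher side and FADS2 (-0.94 ± 0.13), which overlaps neighbouring genes, on the lower. Of 29 activin, TGF-beta and BMP genes, 7 rose and 6 fell, with FSTL3, an inhibitor of activin, at 1.41 ± 0.13, INHBA, the activin subunit, at 2.29 ± 0.19, ID1 at -1.82 ± 0.15 and ID3 at -1.40 ± 0.15. Of 28 Notch and WNT genes, 6 rose and 10 fell, or 3 and 7 without JUN Dox replicates 1 and 3. HES1, the Notch effector, fell from 19.8, 20.3 and 19.3 CPM to 3.46, 5.23 and 4.62 CPM (-2.15 ± 0.14) and SFRP1, a WNT antagonist, from 444, 419 and 423 CPM to 106, 114 and 102 CPM (-2.00 ± 0.12), while RNF43 rose (0.89 ± 0.16). Of 29 ephrins, semaphorins and receptors, 8 rose and 12 fell, with SEMA7A (3.32 ± 0.17) and NRP1 (1.41 ± 0.12) higher. EFNA1 (-1.80 ± 0.16) and EPHA1 (-1.75 ± 0.16) were lower, and EPHA1 overlaps ZYX, which had far more reads. Of 19 retinoid and prostaglandin genes, 4 rose and 7 fell. PTGS2, the inducible cyclooxygenase, rose from 5.86, 3.54 and 3.95 CPM to 42.1, 37.6 and 30.7 CPM (3.03 ± 0.23). ALDH1A3 rose by 1.83 ± 0.13 and PTGER4, a prostaglandin receptor, by 1.13 ± 0.16. PTGER4 overlaps TTC33 and RNF43 overlaps TSPOAP1-AS1.

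The last comparison asked whether the joint state was the sum of the single effects. The interaction is the log2 change on Dox in JUN cells less the same change in vector cells, which equals the net change minus the sum of the 2 single effects. It was called in 165 genes (1.12%), above 0 in 43 (0.291%) and below 0 in 122 (0.826%). Of the 568 genes higher by both factors, 35 had an interaction below 0 and 8 above, and of the 1333 genes higher by YAP5SA and lower by JUN, 37 were below 0.

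INHBA stood at 2.21, 1.4 and 1.97 CPM in vector EtOH, 36 ± 3.68 CPM in vector Dox, 5.99 ± 0.816 CPM in JUN EtOH and 7.73, 10.6 and 9.24 CPM in JUN Dox. The single effects summed to 5.93 on the log2 scale, against a net change of 2.29 ± 0.19, an interaction of -3.64 ± 0.24 (edgeR adjusted p = 3.7e-06). The JUN Dox level lay above vector EtOH but far under vector Dox, and reads may be shared with INHBA-AS1. IL7R, a cytokine receptor, stood at 4.37, 3.94 and 4.89 CPM in vector EtOH, 38 ± 7.17 CPM in vector Dox, 3.45 ± 0.482 CPM in JUN EtOH and 3.86, 3.89 and 3.59 CPM in JUN Dox, an interaction of -2.98 ± 0.23 (edgeR adjusted p = 1.1e-05). Its rise on Dox was seen in vector cells and not in JUN cells. NDRG1, a stress-responsive gene, stood at 50.3, 47.8 and 48.6 CPM in vector EtOH, 83.4 ± 14.8 CPM in vector Dox, 125 ± 13.2 CPM in JUN EtOH and 26.9, 39 and 32.8 CPM in JUN Dox, an interaction of -2.70 ± 0.20 (edgeR adjusted p = 9.6e-06). Either factor alone came with more NDRG1 and both together with less than in the controls.

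On the other side, ATOH8, a bHLH factor, stood at 5.86, 6.04 and 6.15 CPM in vector EtOH, 0.288 ± 0.133 CPM in vector Dox, 16.8 ± 1.02 CPM in JUN EtOH and 4.06, 5.23 and 5.33 CPM in JUN Dox, an interaction of 2.58 ± 0.30 (edgeR adjusted p = 3.4e-04). KRT15 had an interaction of 2.53 ± 0.37. It stood at 3.19 ± 0.637 CPM in vector Dox and 7.7 ± 2.38 CPM in JUN EtOH, and the single effects summed to -6.13 against a net change of -3.60 ± 0.26. PRR15L had an interaction of 2.43 ± 0.55 (edgeR adjusted p = 0.045), at levels near 1 CPM or under in both Dox groups. For KRT15 the joint state was therefore less low than the sum of the single effects.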

How the data were processed

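The authors deposited raw read counts per gene for 12 libraries, with 23459 Entrez gene IDs and no normalization. Per the study's methods, single-end reads of poly(A) RNA were trimmed with Cutadapt, aligned by Bowtie2 (default parameters) to hg19 and counted over genes with countOverlaps of GenomicRanges. The submitters' processing notes give Cutadapt 4.2 and Bowtie2 2.3.5.1. The annotation and any use of strand are not given in the sources used here, so genes with overlapping spans can share reads, and reads across exon junctions are largely lost because Bowtie2 does not split them. Symbols came from a RefSeq table (23308 IDs matched, names only) and gene spans from GENCODE v44lift37 on GRCh37, the assembly of hg19.

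Genes were filtered with filterByExpr (minimum count 10, minimum total 15), TMM-scaled, and fitted in 1 quasi-likelihood model over all 12 libraries with edgeR 4.0.16 under R 4.3.3 (biological coefficient of variation 12.5%). A gene was called at a Benjamini-Hochberg adjusted p under 0.05 over all 14775 genes. SE is the log2 change divided by the square root of F, and SD and n refer to libraries. CPM use TMM-scaled library sizes, except the sums over cell type markers, which use total counts. The floor of 3 counts corresponds to 0.107 to 0.15 CPM, and such floors cover counting error only. In simulated counts for 14378 genes, 200 genes with ample counts were changed, each by a log2 effect of 1 in size per factor. All genes had the same spread, and no GC trend was put in. There, 100% of genes made to add up and 100% of those made to cancel were recovered, and 88% of the latter were found balanced. Opposed effects in the data were often smaller, with class medians of 0.412 and -0.401 or of -0.544 and 0.622 (YAP5SA and JUN). Recovery of effects of that size was not simulated.

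The members, gene lists and tests were chosen with earlier results of these data known. Named genes were JUN, YAP1, the 8 genes the study plotted, the 12 highest and 12 lowest by net change (called, mean of at least 5 CPM, groups apart), the 6 leading genes of each class that added up or was balanced, up to 4 members of each list with the largest net change, and the 3 highest and 3 lowest called interactions. The study's lists were used for membership only. No set test was run.

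Groups shared replicate numbers. Deviations from the group mean correlated between vector EtOH and JUN Dox libraries of the same number at 0.203, 0.15 and 0.123. Over all pairs of groups the same-number correlation ran from -0.404 to 0.574, and that of unlike numbers from -0.566 to 0.46. On average, 8 of the 12 libraries correlated best with libraries of their own number. These values do not settle whether the numbers pair the groups. The main model held the group only and used no pairing. Alternatives were DESeq2 1.42.0, other scalings and filters, the 6 libraries alone, a test against a log2 change of 1, a replicate block, a GC correction, single effects, other widths for balance and each library left out in turn. Leaving out JUN Dox replicates 1 and 3 together was added after the data were seen. Values of some list members are not reported here.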

Additional observations from a re-analysis of the deposited data

Results flagged for a closer look

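For 30 of the 172 named genes, 6 of which were chosen for this value, against 1.12% of all genes, the response to Dox differed between JUN cells and vector cells by a test of the difference itself (interaction term, edgeR adjusted p under 0.05). Most other named genes were picked for the size of their change in these same libraries. Their share is therefore not comparable with that of all genes and shows no enrichment. Each value is the log2 change on Dox in JUN cells less the same change in vector cells, which is also the departure of the net change from the sum of the single effects. No explanation was tested, and levels near the floor widen these values.

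Among genes higher in the doubly perturbed cells, the departure was below the sum in INHBA (-3.64), ADM (-2.53), WNT5A (-2.09), JUN itself (-2.03), IGFBP3 (-1.97), SEMA7A (-1.69), F3 (-1.55), CCDC80 (-1.48), NRG1 (-1.35), FYN (-1.32), CCND2 (-1.25), HBEGF (-1.06) and DUSP5 (-0.76). It was above the sum in ADAMTS1 (1.72) and NRP1 (1.25). The level of JUN includes reads of the vector.

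Among balanced genes the departure was below the sum in NUAK2 (-1.84), THBS1 (-1.75), PLCB4 (-1.09), SKP2 (-0.79) and CRY1 (-0.77), and above it in EHF (2.38). For THBS1 the single effects summed to 1.64 on the log2 scale, while the net change was -0.10 ± 0.15. IL7R (-2.98) and ATOH8 (2.58) were opposed too and were not called net.

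Among genes lower in the doubly perturbed cells, the departure was above the sum in KRT15 (2.53), PRR15L (2.43), TJP3 (2.28), HR (1.38) and HES1 (1.11), and below it in NDRG1 (-2.7) and EFNA1 (-1.5).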

How the results depend on the processing

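Of 54 genes followed through the settings, 39 were called, and 4 (ALPP, ANKRD1, KRTAP2-3 and SCNN1B) were left untested by a mean of at least 5 CPM, ANKRD1 also in the fit of 6 libraries. Of these, NDRG1 and YAP1 were no longer called in the test against a log2 change of 1, and NDRG1 also missed the threshold without JUN Dox replicates 1 and 3. FPR1 gained a call without JUN Dox replicate 3 and NUAK2 with the GC correction, and none of the 39 changed direction under the settings tried. The replicate block gave 5738 net calls against 5638 and changed no call among the genes followed.

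Net calls ranged from 4134 (2248 higher, 1886 lower) without vector EtOH replicate 2 to 6622 (3486 and 3136) without vector Dox replicate 1. Genes higher by both ranged from 434 to 638, lower by both from 436 to 611, the opposed classes from 1046 to 1363 and from 1048 to 1411, balanced genes from 1272 to 1831 and interactions from 97 to 242. Without JUN Dox replicates 1 and 3 there were 2932 net calls (1609 higher, 1323 lower), 360 genes higher by both, 1011 balanced genes and 68 interactions, with 1 JUN Dox library assumed to vary like the other groups. The test against 1 left 740 net calls (396 higher, 344 lower). Single effects gave 543 and 639 opposed genes and 740 balanced ones. A width of 1.2-fold gave 230 balanced genes and DESeq2 358 interactions. A stricter threshold or a narrower interval lowers such counts by construction. Fits with a library left out gave both fewer and more net calls than the main fit, and the cause was not tested.

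The GC correction gave 5750 net calls, of which 4421 were shared with the main test (78.4% of its calls). It gave 1948 balanced genes, of which 1300 were among the 1725 of the main test, so membership of that class moved with GC content. Of 37 lists with 5 or more tested members, the medians of 6 changed sign under some setting, namely MAPK feedback, activin and TGF-beta, squamous and secretory, cholesterol, Notch and WNT genes and the fibroblast markers. The median of ribosome biogenesis genes, 0.000, was -0.029 with the GC correction. Genes with few counts, such as KRTAP2-3 and ANKRD1, are limited by depth.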
